A study of Mus musculus with 8 samples.

Results

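The 10 genes described here encode the receptors for TNF-α and the proteins that assemble on them: Tnfrsf1a, Tnfrsf1b, Tradd, Ripk1, Traf2, Fadd, Cflar, Casp8, Rbck1 and Rnf31. They were taken by gene symbol from the 54146 genes quantified in each library, and all 10 were found under a single identifier. RNA-seq was performed on primary astrocytes grown from the cortices of C57BL/6 mouse pups of postnatal days 2 to 5. The cultures fell into 4 groups of 2 libraries, 8 in all: control KD at the basal level, GSTM1 KD at the basal level, control KD after TNF-α stimulation and GSTM1 KD after TNF-α stimulation (50 ng/ml, 6 h). Every group had been infected with lentivirus and selected with puromycin. The control KD cells carried a non-silencing shRNA and the GSTM1 KD cells an shRNA against Gstm1, which encodes a glutathione S-transferase. Microglia and cells of the oligodendrocyte lineage had been shaken off and the remaining CD11b-positive cells removed on magnetic beads before plating. The libraries are biological replicates, but no source used here says which animals or flasks a replicate number stands for, so p-values measure the spread between these libraries.

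TNF-α binds TNFR1 (Tnfrsf1a), which most cells carry, and TNFR2 (Tnfrsf1b), which in the brain is best known on microglia, endothelial cells and some glia. On TNFR1, the adaptor TRADD brings in the kinase RIPK1 and the ubiquitin ligase adaptor TRAF2, and the linear ubiquitin chain assembly complex of HOIP (Rnf31), HOIL-1 (Rbck1) and SHARPIN then builds the chains that hold the NF-κB activating kinases. When this complex is not maintained, RIPK1 can pass to a second complex with FADD and caspase-8 (Casp8), where c-FLIP (Cflar), a relative of caspase-8 without protease activity, restrains cell death. TNFR2 has no death domain and binds TRAF2 directly.

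The start regions of the 4 genes that passed a test in at least 1 comparison below are printed first, because the results below turn on these members. They are RefSeq windows on GRCm38.p6, read 5′ to 3′ on the strand of the gene, from 250 bases before the annotated start onwards, and each shows 260 bases. The coordinates are chr4:145246861-145247120 on the minus strand for Tnfrsf1b, chr13:34002624-34002883 on the plus strand for the second of the Ripk1 start sites, chr14:55591492-55591751 on the plus strand for Rnf31 and chr2:25546931-25547190 on the minus strand for Traf2. Capitals mark matches to the motifs named after the sequences.
Tnfrsf1b: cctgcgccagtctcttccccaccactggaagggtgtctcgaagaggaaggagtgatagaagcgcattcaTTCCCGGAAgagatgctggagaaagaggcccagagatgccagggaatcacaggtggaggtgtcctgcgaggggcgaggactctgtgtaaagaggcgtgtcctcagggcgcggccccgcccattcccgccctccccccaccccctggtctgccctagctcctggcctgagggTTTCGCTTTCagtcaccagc
Ripk1: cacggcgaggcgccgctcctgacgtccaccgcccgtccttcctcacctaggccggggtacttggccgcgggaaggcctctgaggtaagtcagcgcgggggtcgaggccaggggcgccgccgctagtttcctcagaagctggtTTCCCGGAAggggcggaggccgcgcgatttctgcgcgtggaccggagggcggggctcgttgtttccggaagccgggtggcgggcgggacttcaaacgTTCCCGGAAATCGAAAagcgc
Rnf31: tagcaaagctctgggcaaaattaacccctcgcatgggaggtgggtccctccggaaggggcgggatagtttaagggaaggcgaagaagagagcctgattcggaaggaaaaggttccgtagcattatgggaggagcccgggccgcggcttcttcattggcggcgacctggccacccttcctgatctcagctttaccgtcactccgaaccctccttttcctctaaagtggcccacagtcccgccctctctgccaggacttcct
Traf2: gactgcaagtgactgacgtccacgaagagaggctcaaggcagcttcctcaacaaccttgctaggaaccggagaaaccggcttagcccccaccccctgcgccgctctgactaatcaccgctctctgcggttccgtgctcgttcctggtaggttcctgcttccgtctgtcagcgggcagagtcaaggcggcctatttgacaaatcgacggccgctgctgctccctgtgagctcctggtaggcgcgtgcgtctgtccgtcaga

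Windows were found for 9 of the 10 members (11 windows of 300 bases, from 250 before to 50 after each start), and Tradd had none. Both strands were searched for exact matches to 4 motifs. The GAS element (TTCNNNGAA), bound by STAT factors, was present in 8.3% of all 32851 windows in the table and in windows of 3 members, Tnfrsf1a, Tnfrsf1b and Ripk1. The ISRE core (GAAA, any 2 bases, GAAA), bound by interferon-regulated factors, was present in 3.44% of all windows and in those of 4 members, Tnfrsf1b, Ripk1, Cflar and Rbck1. In Tnfrsf1b the GAS match ran from -181 to -173 and the ISRE match from -10 to -1, counted from the start. In the second Ripk1 window, GAS matches lay at -108 to -100 and -11 to -3, and an ISRE match that overlapped the latter lay at -5 to 5. No member window held the 10-base NF-κB consensus (8.46% of all windows) or the AP-1 letters TGANTCA (7.81%). Neither the Rnf31 nor the Traf2 window matched any of the 4 motifs. These are letter matches only.

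The libraries held 17349676 to 34434633 expected counts, and the 10 genes had 139 to 3803 counts each, so all 10 passed the filter on low counts in every comparison. Gstm1 itself, the target, had 8153 and 9644 counts in the basal control KD libraries and 676 and 626 in basal GSTM1 KD, and after TNF-α 4851 and 6492 against 527 and 405, so the libraries matched their labels. All 10 astrocyte markers were detected in every library, and their levels are given in TPM (a level per transcript length, scaled to the same total in each library). The astrocyte sum, much of it Gfap, was 1790 to 4130 TPM in basal control KD and 4130 to 6240 TPM in basal GSTM1 KD, and 1770 to 3940 against 3910 to 5940 TPM after TNF-α, so that the knockdowns met or overlapped and control KD replicate 1 set the low end. S100b and Sox9 went the other way. S100b had 10 and 12.8 TPM in basal control KD and 4.23 and 4.52 TPM in basal GSTM1 KD. Sox9 had 116 and 181 TPM in basal control KD and 108 and 111 TPM in basal GSTM1 KD. After TNF-α Sox9 had 73 and 99.2 against 63.5 and 72.7 TPM. Aqp4 and Slc1a3 overlapped between the knockdowns in each state. The sum of 8 oligodendrocyte lineage markers was lower in GSTM1 KD, at 423 to 441 against 533 to 596 TPM in basal control KD and at 340 to 352 against 448 to 479 TPM after TNF-α. Olig1 and Olig2 made up nearly all of it, and Sox10, Mbp and Mog had at most 0.43 TPM in any library. Cspg4 went the other way at the basal level, with 11.2 and 15.8 TPM in control KD and 16.8 and 17.9 TPM in GSTM1 KD. The sum of 6 neuronal markers was higher in GSTM1 KD, at 229 to 237 against 189 to 200 TPM in basal control KD and at 208 to 215 against 182 to 183 TPM after TNF-α. Tubb3 and Map2 made up nearly all of it, and Rbfox3, Snap25, Syt1 and Slc17a7 had at most 0.49 TPM in any library. That of 4 ependymal and choroid plexus markers was 99.6 to 113 against 76.1 to 117 TPM in basal control KD and 91.2 to 100 against 65.1 to 76.2 TPM after TNF-α, separate only after TNF-α, and the 6 fibroblast and mural markers overlapped in each state. The part of these levels in the knockdown differences described below was not tested. Control KD replicate 1 stood apart in Gfap, the astrocyte intermediate filament, at 707 TPM at the basal level and 651 TPM after TNF-α, where the other 6 libraries had 2016 to 4184 TPM. Some results on the 10 genes are also given without that replicate. In such bulk libraries, fewer cells of a type and less RNA per cell cannot be told apart.

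Levels can be compared between genes per length, in TPM. At the basal level in control KD, TNFR1 was the most abundant member at 109 ± 18.4 TPM (SD, n = 2), followed by Rbck1 at 51.2 ± 1.64, Cflar at 41.2 ± 3.33 and Ripk1 at 25.8 ± 1.63 TPM. Casp8 (22.7 ± 1.74), Rnf31 (22.2 ± 2.3) and Traf2 (21.7 ± 4.49) came next, and the ranges of neighbours among these 3 overlapped. Tradd (13.9 ± 0.742), Tnfrsf1b (9.34 ± 2.52) and Fadd (6.15 ± 0.354) were lowest. By group mean, TNFR1 held the first place in all 4 groups, while Ripk1 held the fourth place in basal control KD and the seventh in the other 3 groups. In basal control KD the Ripk1 range overlapped that of Traf2, at 24.66 to 26.96 against 18.52 to 24.87 TPM. The fourth place of Ripk1 and the seventh of Traf2 there were thus not separated by the libraries. In basal GSTM1 KD the Ripk1 range was not separated from that of Rnf31. After TNF-α in control KD it overlapped that of Casp8, at 27.38 to 28.14 against 27.6 to 28.16 TPM. The range of Traf2 in basal GSTM1 KD likewise overlapped that of Casp8. Traf2 stood seventh in control KD at the basal level and the fourth in the other 3 groups, and Tnfrsf1b was the lowest member in GSTM1 KD at the basal level with 4.09 ± 0.891 TPM. The order was the same when levels were taken as TMM-scaled counts per kilobase. This was no separate check, because within a library the 2 scales differ only by a constant factor.

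**Figure D1:**
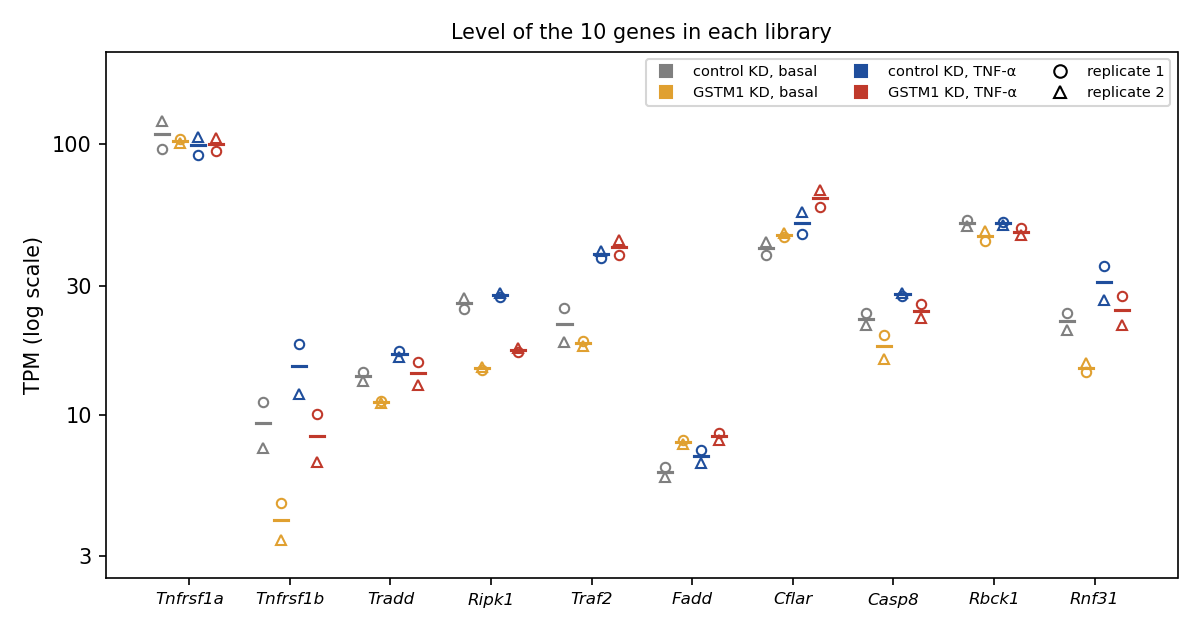
Level of the 10 genes in TPM on a log axis in each of the 8 libraries, coloured by group, with circles for replicate 1, triangles for replicate 2 and a bar at each group mean. Tnfrsf1a stays near 100 TPM throughout, whereas Tnfrsf1b runs from 3.46 to 18.3 TPM and Traf2 separates basal from stimulated libraries.

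The first question was whether GSTM1 KD alters the receptor complex genes before stimulation. At the basal level 3 of the 10 members were lower in GSTM1 KD and none was higher: Tnfrsf1b, Ripk1 and Rnf31. This compares with 10.2% of the 14899 genes tested that changed in either direction and 5.62% that were lower, at an adjusted p under 0.05 from edgeR's quasi-likelihood test, adjusted by Benjamini-Hochberg over all genes tested (called the edgeR adjusted p from here on). The median log2 fold change was -0.33 over the members and -0.002 over all genes tested. DESeq2 called the same 3 members, beside 18.2% of genes. CPM (counts scaled to a common library total) of the groups did not overlap for 7 members, 6 lower and 1 higher in GSTM1 KD, but the same held for 63% of all genes.

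After TNF-α stimulation, 1 of the 10 members, Ripk1, was lower in GSTM1 KD, where 16.2% of the 14593 genes tested changed and 8.92% were lower. The median log2 fold change was -0.24 over the members and -0.011 over all genes. DESeq2, which called 20.4% of genes, called Tnfrsf1b as well. CPM did not overlap between the groups for 5 lower and 2 higher members, beside 65.6% of all genes.

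**Figure D2:**
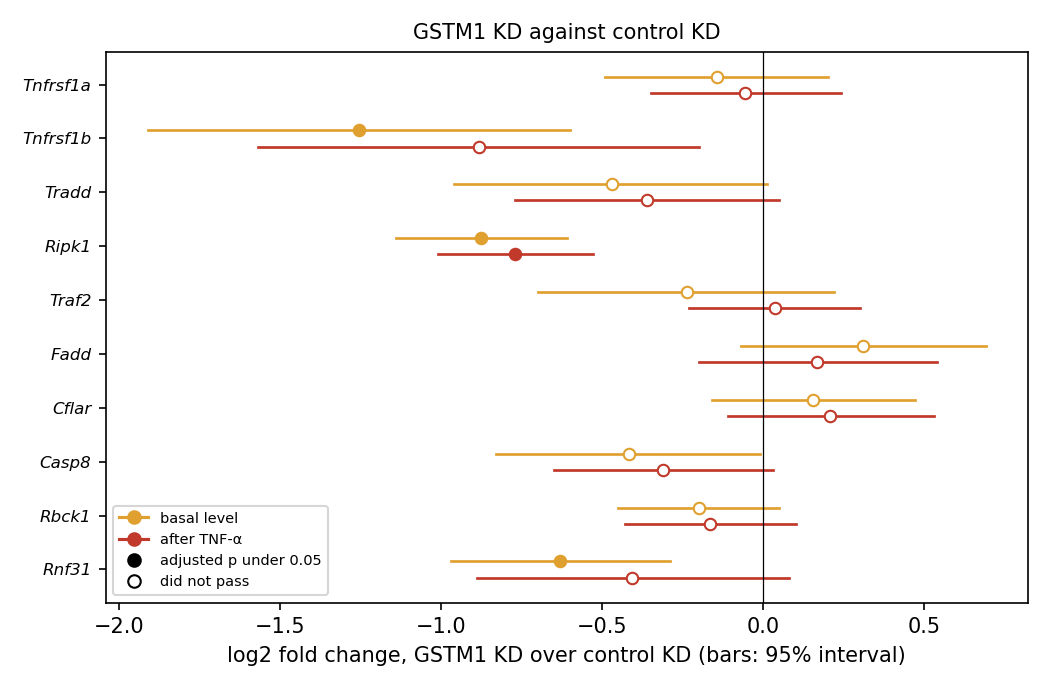
Log2 fold change of GSTM1 KD over control KD for each gene, in basal (orange) and stimulated (red) libraries, with 95% intervals from the edgeR fit; filled points passed an adjusted p of 0.05. Ripk1 is filled in both states and Tnfrsf1b and Rnf31 at the basal level only, with intervals of the 2 states that overlap for each.

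Of the 2 receptors, TNFR2 RNA was lower in basal GSTM1 KD, and TNFR1 RNA passed the test in neither state. Tnfrsf1a (ENSMUSG00000030341.17, chr6:125349362-125362484 on GRCm38, plus strand) had 107.5 and 135.9 CPM in basal control KD and 112.1 and 108.2 CPM in basal GSTM1 KD. After TNF-α it had 103.2 and 122.5 CPM in control KD and 105.4 and 115.4 CPM in GSTM1 KD. The 4 groups overlapped throughout, and the group means spanned 0.13 on the log2 CPM scale, the narrowest range of the 10 genes. The knockdown difference was -0.14 on the log2 scale (SE 0.14, 95% interval -0.49 to 0.2, edgeR adjusted p = 0.519) at the basal level and -0.06 (interval -0.35 to 0.24, edgeR adjusted p = 0.766) after TNF-α, with a sign that turned in both states when single libraries were left out.

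Tnfrsf1b (ENSMUSG00000028599.10, chr4:145213463-145246870, minus strand) had 23.4 and 15.8 CPM in basal control KD and 9.44 and 6.96 CPM in basal GSTM1 KD. After TNF-α it had 37.1 and 25.7 CPM in control KD and 21 and 13.7 CPM in GSTM1 KD. Both GSTM1 KD libraries were below both control KD libraries in each state, and replicate 1 was above replicate 2 in all 4 groups. At the basal level Tnfrsf1b was 2.39-fold lower in GSTM1 KD (log2 fold change -1.25, SE 0.265, edgeR adjusted p = 0.0428). After TNF-α the log2 fold change was -0.88 (SE 0.274, interval -1.57 to -0.2), which did not pass with edgeR (adjusted p = 0.0811) but did with DESeq2 (adjusted p = 0.0149). It also passed with edgeR without a filter on low counts, and with the replicate number as a block in the fit (edgeR adjusted p = 0.00328). With 1 library left out it ran from -1.22 (without GSTM1 KD replicate 1) to -0.58 (without control KD replicate 1). The basal difference was also called without control KD replicate 1 (log2 fold change -0.94, edgeR adjusted p = 0.0351). It was not called without GSTM1 KD replicate 1 (-1.49, edgeR adjusted p = 0.117) or replicate 2 (-1.06, edgeR adjusted p = 0.238), fits in which the lone library is assumed to vary like the other group and in which 1 and 3 genes in all were called.

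TNFR2 is known in microglia, whose markers were at low levels here. Of 11 microglial markers, 6 were at 0 TPM in at least 1 library, among them the defining markers Itgam, Cx3cr1 and P2ry12. The summed level of the 11 was 20 and 10.1 TPM in basal control KD and 10.8 and 7.01 TPM in basal GSTM1 KD. After TNF-α it was 19.3 and 11.8 TPM in control KD and 12.3 and 6.59 TPM in GSTM1 KD. Replicate 1 was thus the higher library in each group for this sum as for Tnfrsf1b, and each GSTM1 KD library was below the control KD library of the same number. The knockdowns overlapped in this sum in each state, and it did not follow stimulation. Cd68, the largest part, had 7.74 and 5.27 TPM in basal control KD and 7.62 and 5.49 TPM in basal GSTM1 KD. Among the other markers, Trem2, C1qa and Tyrobp were lower in both basal GSTM1 KD libraries. Trem2 had 2.52 and 0.93 TPM in control KD against 0.25 and 0. C1qa had 4.62 and 1.25 against 1.23 and 0.45, and Tyrobp 2.69 and 1.02 against 0.69 and 0. P2ry12 went the other way, at 0 and 0 against 0.04 and 0.47. After TNF-α Trem2, C1qa and Tyrobp overlapped. Tnfrsf1b was separate between the knockdowns, and within each knockdown it was higher in both stimulated libraries than in both basal ones. Itgam, which encodes CD11b, had 61 and 8 counts in basal control KD and 3 and 0 in basal GSTM1 KD, and 35 and 6 against 8 and 1 after TNF-α. Tmem119 also had fewer counts in basal GSTM1 KD, with 17 and 34 in basal control KD and 12 and 8 in basal GSTM1 KD. Its basal TPM, which allow for library size, overlapped, at 0.41 and 1.14 against 0.46 and 0.36. After TNF-α Tmem119 had 4 and 9 counts in control KD against 9 and 12 in GSTM1 KD. The 5 endothelial markers, another known site of TNFR2, summed to 5.6 to 6.29 TPM in basal control KD and 3.12 to 3.9 TPM in basal GSTM1 KD, and to 6.75 to 8.22 and 3.98 to 5.22 TPM after TNF-α. Cdh5 and Flt1 made up most of that sum, Cldn5 was at 0 in every library, and Kdr went the other way, with 0.18 and 0.37 TPM in basal control KD, 0.54 and 0.93 TPM in basal GSTM1 KD, and 0.26 and 0.37 against 0.73 and 0.84 TPM after TNF-α. The part of microglial or endothelial RNA in the Tnfrsf1b difference was not tested.

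As a description, the level of TNFR1 RNA was 8.62 and 16.1 times that of TNFR2 RNA (TPM over TPM) in the basal control KD libraries and 22.1 and 29.2 times in basal GSTM1 KD. After TNF-α the ratio was 4.99 and 8.93 for control KD and 9.41 and 15.7 for GSTM1 KD. In each state both GSTM1 KD libraries had the higher ratio, and replicate 1 had the lower ratio of each pair.

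**Figure D3:**
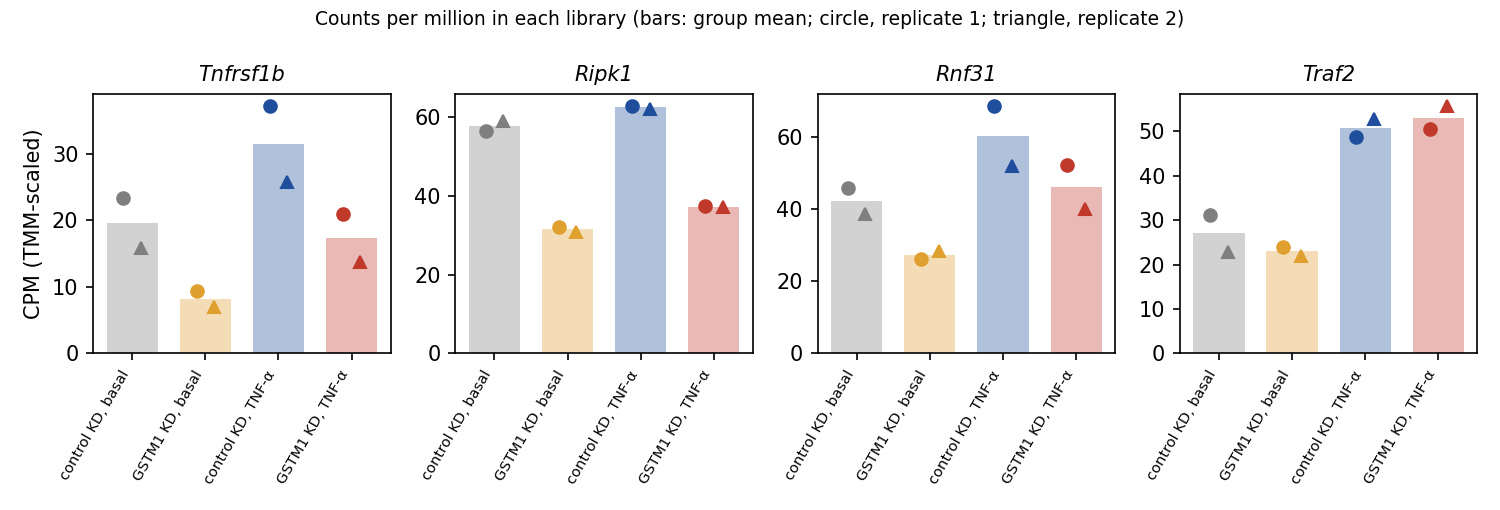
TMM-scaled CPM of Tnfrsf1b, Ripk1, Rnf31 and Traf2 in each library, with bars from 0 for the group mean, circles for replicate 1 and triangles for replicate 2. Ripk1 replicates lie close together and split by knockdown, Traf2 splits by stimulation, and Tnfrsf1b replicates differ within every group.

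Among the proteins that join TNFR1 first, Ripk1 was the one that passed the test between knockdowns, in both states. Ripk1 (ENSMUSG00000021408.15, chr13:34002363-34037147, plus strand), the kinase shared by the survival and death complexes, had 56.5 and 59 CPM in basal control KD and 32 and 30.9 CPM in basal GSTM1 KD. After TNF-α it had 62.9 and 62.1 CPM in control KD and 37.4 and 37.1 CPM in GSTM1 KD. Its replicates were close in every group, and no GSTM1 KD library reached a control KD library of either state. The level was 1.84-fold lower at the basal level (log2 fold change -0.88, SE 0.106, edgeR adjusted p = 0.0183) and 1.71-fold lower after TNF-α (log2 fold change -0.77, SE 0.0955, edgeR adjusted p = 0.0131). All 9 alternative settings that kept the 4 libraries or more called both differences. Without GSTM1 KD replicate 1 or 2 the value hardly moved but was not called, at -0.9 and -0.86 at the basal level (edgeR adjusted p = 0.118 and 0.168) and at -0.77 and -0.76 after TNF-α (edgeR adjusted p = 0.101 and 0.124). The gene overlaps Serpinb6a on the opposite strand and 2 processed pseudogenes, Gm17083 and Gm17084, and its expected counts were not whole, so some reads were shared with other features.

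Tradd (ENSMUSG00000031887.13, chr8:105258286-105264609, minus strand), the adaptor that recruits RIPK1 and TRAF2, had 12.1 and 10.4 CPM in basal control KD and 8.79 and 7.41 CPM in basal GSTM1 KD, and 13.8 and 12.9 against 11.1 and 10.1 CPM after TNF-α. The GSTM1 KD libraries were below the control KD libraries in each state, but neither difference passed, at -0.47 (interval -0.96 to 0.01, edgeR adjusted p = 0.167) and -0.36 (interval -0.77 to 0.05, edgeR adjusted p = 0.176) on the log2 scale. Traf2 (ENSMUSG00000026942.13, chr2:25517982-25546940, minus strand), the adaptor that carries the cIAP ubiquitin ligases, had 31.3 and 22.9 CPM in basal control KD and 24 and 22 CPM in basal GSTM1 KD. After TNF-α it had 48.9 and 52.9 CPM in control KD and 50.5 and 55.8 CPM in GSTM1 KD. The knockdowns overlapped in both states, with differences of -0.24 (interval -0.7 to 0.22, edgeR adjusted p = 0.421) and 0.04 (interval -0.23 to 0.3, edgeR adjusted p = 0.831). At the basal level 1 library decided the Traf2 value, which was -0.45 without control KD replicate 2 (edgeR adjusted p = 0.0399) and 0 without control KD replicate 1 (edgeR adjusted p = 0.989).

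In the linear ubiquitin complex, Rnf31 was lower in basal GSTM1 KD and Rbck1 passed the test in neither state. Rnf31 (ENSMUSG00000047098.18, chr14:55591708-55603693, plus strand), which encodes the ligase HOIP, had 45.8 and 38.7 CPM in basal control KD and 26.3 and 28.4 CPM in basal GSTM1 KD. After TNF-α it had 68.8 and 52 CPM in control KD and 52.4 and 40.1 CPM in GSTM1 KD. The groups were separate at the basal level and just met after TNF-α, where the higher GSTM1 KD library passed the lower control KD library. At the basal level the difference was 1.55-fold (log2 fold change -0.63, SE 0.137, edgeR adjusted p = 0.0453). This call was near the threshold: it was lost with library size alone as the scaling (edgeR adjusted p = 0.054), with effective lengths as offsets (edgeR adjusted p = 0.0503), with all 8 libraries in the fit (edgeR adjusted p = 0.0538), and without GSTM1 KD replicate 1 (-0.57, edgeR adjusted p = 0.258) or 2 (-0.69, edgeR adjusted p = 0.277). After TNF-α the difference was -0.41 (interval -0.89 to 0.08, edgeR adjusted p = 0.192), and it ranged from -0.61 without GSTM1 KD replicate 1 to -0.18 without control KD replicate 1. It passed without a filter on low counts (edgeR adjusted p = 0.0245) and with the replicate number as a block in the fit (edgeR adjusted p = 0.0192).

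Rnf31 ends within Irf9, a gene on the same strand, with 123 bases in common, but the deposited expected counts of Rnf31 were whole numbers in all 8 libraries, so they show no division of reads with another gene. Rbck1 (ENSMUSG00000027466.15, chr2:152316334-152332653, minus strand), which encodes the partner HOIL-1, had 59.7 and 59 CPM in basal control KD and 50.1 and 53.2 CPM in basal GSTM1 KD, and 59.5 and 59.8 against 57.3 and 50.9 CPM after TNF-α. The groups did not overlap in either state, yet the differences of -0.2 (interval -0.45 to 0.05, edgeR adjusted p = 0.232) and -0.17 (interval -0.43 to 0.1, edgeR adjusted p = 0.308) did not pass. Sharpin, the third subunit, belongs to the wider pathway list and is described there.

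None of the 3 genes of the death-inducing branch passed the test between knockdowns. Fadd (ENSMUSG00000031077.7, chr7:144577318-144582463, minus strand), the death domain adaptor, had 13.8 and 12.6 CPM in basal control KD and 16.6 and 16.1 CPM in basal GSTM1 KD, and 16.1 and 14.6 against 18.3 and 16.8 CPM after TNF-α. It was the only member whose GSTM1 KD libraries were above the control KD libraries in both states, by 0.31 (interval -0.07 to 0.69, edgeR adjusted p = 0.224) and 0.17 (interval -0.2 to 0.54, edgeR adjusted p = 0.457) on the log2 scale. Its antisense neighbour Faddos overlaps it and had 2 to 7 counts per library.

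Casp8 (ENSMUSG00000026029.14, chr1:58795374-58847503, plus strand), the initiator caspase, had 24.4 and 22.4 CPM in basal control KD and 19.5 and 15.6 CPM in basal GSTM1 KD, and 27.9 and 30.6 against 25.7 and 22.2 CPM after TNF-α. The GSTM1 KD libraries were lower in each state, with differences of -0.42 (interval -0.83 to -0.01, edgeR adjusted p = 0.153) and -0.31 (interval -0.65 to 0.03, edgeR adjusted p = 0.164). Cflar (ENSMUSG00000026031.15, chr1:58711508-58758884, plus strand), the caspase-8 restraint, lies 36489 bases from Casp8 on the same chromosome. It had 70.4 and 82.5 CPM in basal control KD and 80.3 and 89.9 CPM in basal GSTM1 KD, and 92.5 and 115 against 117.3 and 126.5 CPM after TNF-α. Its groups overlapped at the basal level and were separate after TNF-α, with differences of 0.15 (interval -0.16 to 0.47, edgeR adjusted p = 0.439) and 0.21 (interval -0.11 to 0.53, edgeR adjusted p = 0.297).

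Set side by side as levels, Cflar RNA was 1.63 and 2.03 times Casp8 RNA (TPM over TPM) in basal control KD and 2.31 and 2.93 times in basal GSTM1 KD. After TNF-α the ratio was 1.69 and 1.99 for control KD and 2.27 and 2.99 for GSTM1 KD. The 4 GSTM1 KD libraries all had a higher ratio than the 4 control KD libraries, and the ratio of each knockdown covered a similar range in both states. This ratio was looked at after the values were seen and was given no test.

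The second question was how TNF-α itself moves the genes of its own receptor complex. In control KD, 1 of the 10 members rose, Traf2, and none fell, where 2.63% of the 15332 genes tested changed and 2.1% rose. In GSTM1 KD, Traf2 was again the single member called, where 2.65% of genes changed and 2.35% rose. The members had a median log2 fold change of 0.29 in control KD and 0.42 in GSTM1 KD, beside -0.021 and -0.007 over all genes tested. DESeq2 called Traf2 alone in control KD (4.58% of genes called) and Traf2, Tnfrsf1b and Rnf31 in GSTM1 KD (3.77%). CPM was higher in both stimulated libraries than in both basal libraries for the same 8 members in each knockdown, all but Tnfrsf1a and Rbck1, beside 34.5% of all genes that did not overlap in control KD and 44.5% in GSTM1 KD.

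Traf2 rose 1.88-fold in control KD (log2 fold change 0.91, SE 0.155, edgeR adjusted p = 0.0291) and 2.31-fold in GSTM1 KD (log2 fold change 1.21, SE 0.157, edgeR adjusted p = 0.00923), from the CPM values given above. The call in control KD was not made with the 4 libraries of that knockdown alone (edgeR adjusted p = 0.179). With 1 of the 8 libraries left out it was made only without control KD basal replicate 1 (1.15, edgeR adjusted p = 0.0163), and the other 7 fits gave values from 0.71 to 0.96 and edgeR adjusted p from 0.0612 to 0.13. In GSTM1 KD it was lost without any one of that knockdown's own 4 libraries, with values from 1.14 to 1.28 and edgeR adjusted p from 0.0526 to 0.116. Without control KD replicate 1 in both states, Traf2 rose by 1.21 in control KD (edgeR adjusted p = 0.0161) and by 1.2 in GSTM1 KD (edgeR adjusted p = 0.00386).

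Tnfrsf1b had values of 0.68 in control KD (SE 0.296, edgeR adjusted p = 0.416) and 1.08 in GSTM1 KD (SE 0.313, edgeR adjusted p = 0.186, DESeq2 adjusted p = 0.0228). With 1 library left out they ran from 0.39 (without control KD TNF-α replicate 1) to 1 (without control KD basal replicate 1) in control KD, and from 0.73 (without GSTM1 KD TNF-α replicate 1) to 1.35 (without GSTM1 KD TNF-α replicate 2) in GSTM1 KD, none of them called. Rnf31 had values of 0.51 (SE 0.18, edgeR adjusted p = 0.267) and 0.76 (SE 0.183, edgeR adjusted p = 0.102, DESeq2 adjusted p = 0.0133). Both were called in GSTM1 KD by DESeq2 and not by the edgeR fit behind the adjusted p given here. They also passed there with edgeR without a filter on low counts. With the replicate number added to the edgeR fit as a block, they passed too (edgeR adjusted p = 0.00202 and 0.0207). These 2 settings also called Tnfrsf1b in control KD (edgeR adjusted p = 0.00752 with the block), and Cflar in both knockdowns. Cflar had 0.44 (SE 0.135, edgeR adjusted p = 0.194) and 0.52 (SE 0.135, edgeR adjusted p = 0.135), and without control KD replicate 1 in both states its value in GSTM1 KD passed (0.52, edgeR adjusted p = 0.0324). The other members had smaller values, from -0.11 (Tnfrsf1a) to 0.32 (Casp8) in control KD and from 0 (Tnfrsf1a) to 0.45 (Casp8) in GSTM1 KD, and the signs of Tnfrsf1a in GSTM1 KD and of Rbck1 in control KD turned with the scaling. For Tnfrsf1a the intervals were -0.43 to 0.21 and -0.32 to 0.33.

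**Figure D4:**
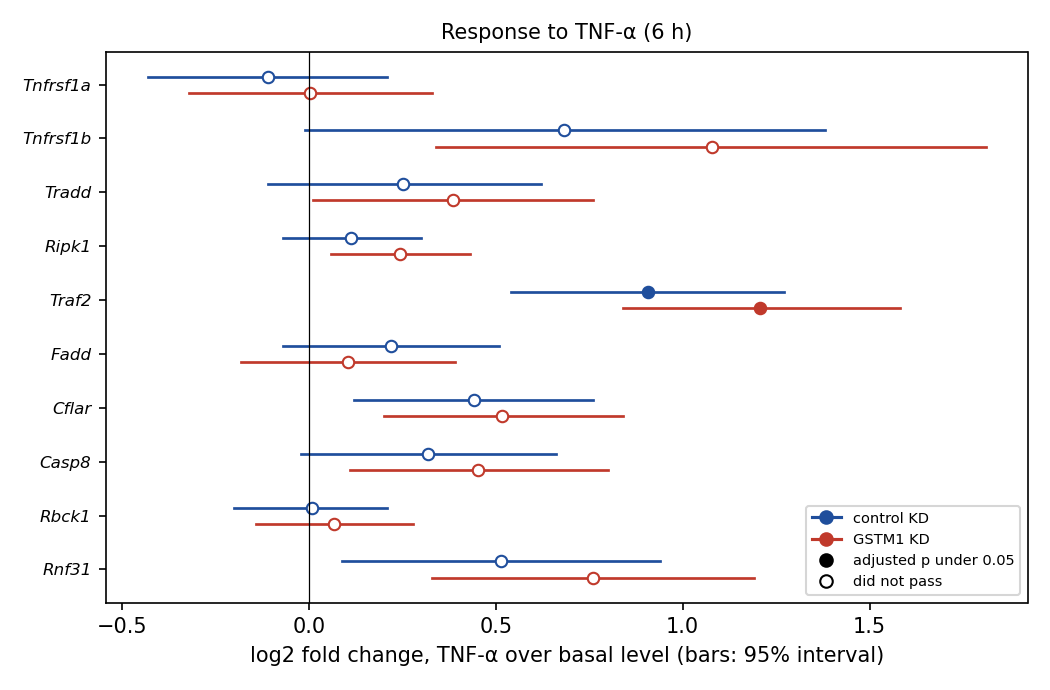
Log2 fold change after TNF-α over the basal level for each gene in control KD (blue) and GSTM1 KD (red), with 95% intervals from the edgeR fit on all 8 libraries; filled points passed an adjusted p of 0.05. Traf2 is the one filled gene in both knockdowns, and the 2 intervals of every gene overlap.

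The third question was whether the response differed between the knockdowns, tested as the interaction of knockdown and stimulation. None of the 10 members passed with edgeR, where 0% of the 15332 genes tested did, and none of the 10 had an unadjusted p under 0.05, beside 295 genes in all. DESeq2 called 27 genes (0.157%) and no member. The value was positive for 9 of the 10 genes, with a median of 0.13 beside 0.017 over all genes, and it shares its libraries among all members. It was 0.4 for Tnfrsf1b (SE 0.429, interval -0.61 to 1.4), 0.3 for Traf2 (interval -0.22 to 0.81), 0.25 for Rnf31 (interval -0.35 to 0.85) and 0.13 for Ripk1 (interval -0.13 to 0.39), and Fadd had the one negative value, -0.12 (interval -0.52 to 0.29). A single library decided these sizes: with 1 left out, the Tnfrsf1b value ran from 0.04 (without GSTM1 KD TNF-α replicate 1) to 0.7 (without control KD TNF-α replicate 1), that of Traf2 from 0.05 to 0.49 and that of Rnf31 from 0.03 to 0.47. The signs for Tnfrsf1a, Cflar, Casp8 and Rbck1 turned with the library left out. Without control KD replicate 1 in both states the Traf2 value was 0. Of the intervals given, that of Tnfrsf1b was the widest and that of Ripk1 the narrowest.

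Genes with the most similar pattern over the 8 libraries were found by the root mean square difference of centred log2 CPM, among 15331 other genes. The nearest to Tnfrsf1a were Pomt2 (0.042), Vps52 (0.044) and Dennd5a (0.048), against a median of 0.302 over all genes, and Tnfrsf1a itself deviated from a flat line by 0.123. For Tnfrsf1b the nearest were Angpt4 (0.152), Map3k6 (0.156) and Lcp1 (0.18), the last of which encodes a leukocyte actin-bundling protein, against a median of 0.782. For Traf2 they were RP23-214L4.1 (0.126), Tyk2 (0.154) and Ralb (0.16), against a median of 0.622. The points share libraries and depth, and these distances are a description without a test.

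Beyond the 10 members, 46 other genes of TNF receptor signalling were followed as a list, of which 43 could be tested. The 3 ligands could not: Tnf had 0 to 17 counts per library, Lta 3 to 8 and Ltb 1 to 3, and the 17 counts of Tnf were in control KD replicate 1 after TNF-α. In GSTM1 KD at the basal level 15 of the 43 changed (34.9%, beside 10.2% of all genes), 11 lower and 4 higher, with a median log2 fold change of -0.02. After TNF-α 14 changed (32.6%, beside 16.2%), 12 lower and 2 higher, with a median of 0.02. In both states few or no genes in all were called once a GSTM1 KD library was left out. List genes were not counted in those fits, which hold fewer samples. The list calls between knockdowns are thus not shown to hold with a GSTM1 KD library left out. TNF-α raised 7 of them in control KD (16.3%, beside 2.63%) and 6 in GSTM1 KD (14%, beside 2.65%) and lowered none in either. Of this list 0 genes passed the test of a difference in response, in edgeR or in DESeq2.

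Among other complex members and ubiquitin ligases, 4 of 10 changed at the basal level. Traf3, a brake on the alternative NF-κB pathway, was higher in GSTM1 KD (log2 fold change 1.24, edgeR adjusted p = 0.0192). Birc3 (cIAP2, -1.64, edgeR adjusted p = 0.0224), Sharpin (-0.66, edgeR adjusted p = 0.0453) and Ube2v1, a partner in K63 chain synthesis (-1.6, edgeR adjusted p = 0.0132), were lower. The same 4 genes changed after TNF-α, Traf3 at 1.07 (edgeR adjusted p = 0.0116), Birc3 at -1.01 (edgeR adjusted p = 0.0129), Sharpin at -0.6 (edgeR adjusted p = 0.0376) and Ube2v1 at -1.39 (edgeR adjusted p = 0.0098). In the receptor binding and release group, 1 of 5 changed at the basal level, Erap1, linked to TNFR1 shedding (1.09, edgeR adjusted p = 0.0389). After TNF-α none of the 5 passed with edgeR, and Erap1 (0.72, edgeR adjusted p = 0.0543) passed with DESeq2 (adjusted p = 0.00709).

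Of the 12 TAK1 and IKK kinase genes, 5 changed at the basal level, and 4 did so after TNF-α. The TAK1 kinase gene Map3k7 (-0.66, edgeR adjusted p = 0.0263), its ubiquitin-binding partners Tab2 (-0.88, edgeR adjusted p = 0.0228) and Tab3 (-1.19, edgeR adjusted p = 0.0192) and the IKKα gene Chuk (-0.63, edgeR adjusted p = 0.029) were lower at the basal level. The remaining one, Map3k5, which encodes ASK1, was higher (1.12, edgeR adjusted p = 0.0353) and is named outside the limit of 4 per group. After TNF-α Map3k7 (-0.58, edgeR adjusted p = 0.0223), Tab2 (-1.04, edgeR adjusted p = 0.0109), Tab3 (-1.09, edgeR adjusted p = 0.0215) and Chuk (-0.74, edgeR adjusted p = 0.0164) were lower again. Map3k5 then had 0.92, which did not pass with edgeR (adjusted p = 0.074) but did with DESeq2 (adjusted p = 0.0429).

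Brakes and deubiquitinases gave 3 of 8 at the basal level, with Tnfaip3, which encodes A20 (-1.79, edgeR adjusted p = 0.0336), and Otulin, the linear chain protease (-0.66, edgeR adjusted p = 0.0436), lower and Spata2 higher (0.54, edgeR adjusted p = 0.0439). After TNF-α 4 of 8 changed, Tnfaip3 (-0.88, edgeR adjusted p = 0.0315), Otulin (-0.81, edgeR adjusted p = 0.0279) and Tnip1 (-0.58, edgeR adjusted p = 0.0205) lower and Cyld higher (0.67, edgeR adjusted p = 0.0258). Spata2 then had 0.53, which did not pass with edgeR (adjusted p = 0.0572) but did with DESeq2 (adjusted p = 0.0421). Of the 8 death effectors, the necroptosis executor Mlkl (-1.74, edgeR adjusted p = 0.0282) and Diablo, an inhibitor of IAP proteins (-1, edgeR adjusted p = 0.0203), were lower at the basal level. After TNF-α Diablo (-0.9, edgeR adjusted p = 0.0164) and Ripk3, the kinase that acts on MLKL (-1.43, edgeR adjusted p = 0.0452, DESeq2 adjusted p = 0.101), were lower. Ripk3 had a like value at the basal level that did not pass (-1.37, edgeR adjusted p = 0.0674). Mlkl had -0.41 after TNF-α (edgeR adjusted p = 0.489).

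In response to TNF-α, the list genes that edgeR called higher in both knockdowns were 3 brakes (Nfkbia, Tnfaip3 and Tnip1), the 2 cIAP genes (Birc2 and Birc3) and Bid, which encodes a target of caspase-8. The genes called in control KD were Nfkbia, which encodes IκBα (log2 fold change 3.31, edgeR adjusted p = 0.000239), Birc3 (3.08, edgeR adjusted p = 0.000239), Tnfaip3 (2.61, edgeR adjusted p = 0.00789), Tnip1 (2.11, edgeR adjusted p = 0.000379), Bid (1.53, edgeR adjusted p = 0.0101), Birc2 (1.35, edgeR adjusted p = 0.00497) and, in control KD alone with edgeR, Ikbke (1.35, edgeR adjusted p = 0.0334). In GSTM1 KD they were Nfkbia (3.81, edgeR adjusted p = 0.000255), Birc3 (3.73, edgeR adjusted p = 0.000255), Tnfaip3 (3.54, edgeR adjusted p = 0.0027), Bid (1.89, edgeR adjusted p = 0.00425), Tnip1 (1.69, edgeR adjusted p = 0.00086) and Birc2 (1.29, edgeR adjusted p = 0.00433). The 6 genes called in GSTM1 KD were all among the 7 called in control KD, and the fits for both responses share one estimate of the spread. All these log2 fold changes of called genes were above the 0.91 and 1.21 of Traf2. Ikbke in GSTM1 KD had 1.01, which passed with DESeq2 (adjusted p = 0.0189) and not with edgeR (adjusted p = 0.102).

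**Figure D5:**
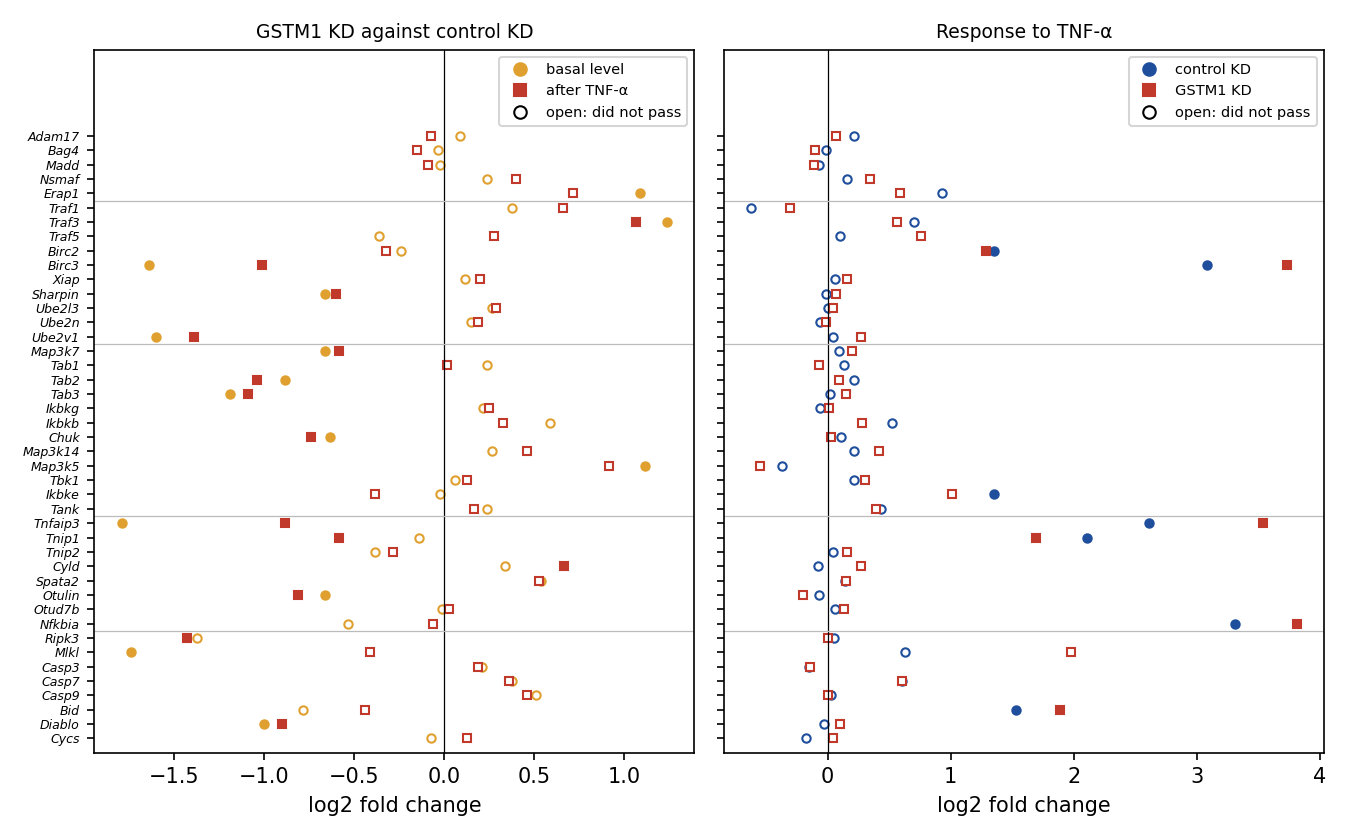
Log2 fold changes of the 43 tested genes of the TNF receptor signalling list, grouped by role between the grey lines, for GSTM1 KD over control KD (left) and TNF-α over the basal level (right); filled symbols passed an adjusted p of 0.05. Birc3, Tnfaip3 and Nfkbia have the largest responses to TNF-α, and Birc3 and Tnfaip3 are lower in GSTM1 KD in both states.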

How the data were processed

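The measurement was RNA-seq of 8 libraries. The authors mapped paired reads from strand-specific libraries to GRCm38 with STAR (version 2.5.4b, per the processing notes) and quantified genes with RSEM (version 1.3.0). Whether counting used the strand, and the annotation release, are not given in the sources used here; all 10 identifiers match GENCODE M21. The deposited values used are expected counts, RSEM's estimates of fragments per gene, which are not always whole and not normalized, and TPM, which the authors' RSEM run scaled per transcript length to one total per library.

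Expected counts were rounded. edgeR (version 4.0.16, R version 4.3.3) gave TMM factors, the filterByExpr filter and its quasi-likelihood F-test, with p-values adjusted by Benjamini-Hochberg over all genes tested and a threshold of 0.05. Knockdowns were compared within each state on its 4 libraries, and responses and their difference on all 8. Intervals are 95% intervals from the fit. No exact test can reach 0.05 with only 2 libraries a group. Alternatives were DESeq2 (version 1.42.0), limma (version 3.58.1), other scalings, filters and samples, a replicate block and leaving out each library; leaving out control KD replicate 1 in both states was added after seeing the data. Procedures were tested on simulated data. The 10 members and the pathway and marker lists were chosen with earlier results of these data known. All 10 members are described; genes of the list are named where called, up to 4 per role and comparison, smallest p first. A planned comparison of protein sequences was not run. A further microglial marker of the list is not reported here and is left out of the microglial sum.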

Additional observations from a re-analysis of the deposited data

How the results depend on the processing

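At the basal level 3 members were called, with 2 or 3 under the other settings and 0 to 4 when single libraries were left out. After TNF-α stimulation Ripk1 alone was called, against 2 members with DESeq2, 3 without a filter on low counts and 0 to 4 when single libraries were left out. For the response in control KD, 1 member was called, against 4 without a filter, 0 on the 4 libraries of that knockdown and 0 to 1 with a library left out. For the response in GSTM1 KD, 1 member was called, against 3 with DESeq2, 4 without a filter, 2 on the 4 libraries of that knockdown, 2 without control KD replicate 1 in both states and 0 to 1 with a library left out. Calls over all genes moved with the same settings. Without a filter they were 3957 of 24716 (basal) and 4540 of 24134 (after TNF-α), against 1524 of 14899 and 2360 of 14593. For the responses they were 1255 (control KD) and 1050 (GSTM1 KD) of 26474, against 403 and 406 of 15332. On the 4 libraries of that knockdown they were 72 of 14803 and 691 of 14753. They also moved when a library was left out. The member counts alone are therefore no result about the members. The cause was not tested, except that leaving out a library leaves fewer samples. For the difference in response, 0 members were called under every alternative run.

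The direction of single values turned only for values that were not called. Rbck1 in control KD (response 0.01) was -0.02 with library size only and -0.02 without a filter. Tnfrsf1a in GSTM1 KD (response 0.00) was 0 with DESeq2, with DESeq2's size factors, with at least 10 counts in every library and with the replicate block, -0.04 with library size only and -0.01 without a filter. Without control KD replicate 1 in both states, the differences in response of Casp8 and Traf2 were 0. With single libraries left out, knockdown differences ranged at the basal level from -0.45 to 0 (Traf2) and from -0.31 to 0.03 (Tnfrsf1a), and after TNF-α from -0.03 to 0.12 (Traf2) and from -0.17 to 0.07 (Tnfrsf1a). Responses ranged from -0.27 to 0.08 (Tnfrsf1a, control KD), -0.06 to 0.07 (Tnfrsf1a, GSTM1 KD) and -0.02 to 0.15 (Rbck1, GSTM1 KD). Differences in response ranged from -0.07 to 0.23 (Cflar), -0.08 to 0.27 (Tnfrsf1a), -0.03 to 0.3 (Casp8) and -0.03 to 0.14 (Rbck1).

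Same-numbered libraries deviated together (correlation across 15332 genes, which are not independent replicates, 0.165 to 0.575 over the 6 pairs of groups), but there are only 2 numbers and no label says what they mark. With the replicate number as a block, 3 members were called after TNF-α (Ripk1, Tnfrsf1b and Rnf31). The block called 3 for the response in control KD (Traf2, Cflar and Tnfrsf1b) and 4 for that in GSTM1 KD (Traf2, Cflar, Tnfrsf1b and Rnf31). It left the basal count at 3 and the difference in response at 0. Over all genes it called 4712 of 14899 at the basal level, against 1524 without it. After TNF-α it called 4303 of 14593, against 2360. For the responses it called 988 (control KD) and 808 (GSTM1 KD) of 15332, against 403 and 406. The member counts between knockdowns were thus near the share over all genes under the block.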
